A study of Mus musculus with 28 samples.

Results

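H3K27me3 islands of at least 4000 bp that were found in D1 nuclei, with no A2a island overlapping them, are described here, and are called D1-alone islands. H3K27me3 is laid down by Polycomb repressive complex 2 and marks genes that are kept silent, often over long domains. H3K4me3 marks active and poised promoters. Medium spiny neurons of the striatum fall into the direct pathway, whose cells carry the D1 dopamine receptor, and the indirect pathway, whose cells carry the D2 dopamine receptor and the adenosine A2a receptor. CUT&RUN (CnR), which cuts and sequences the DNA around an antibody-bound mark, was run on nuclei isolated by INTACT, an affinity purification of tagged nuclei.

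The A2a nuclei came from Sun1-sfGFP;A2a-cre mice and the D1 nuclei from Sun1-sfGFP;Drd1-cre mice. Both lines carry the R26-CAG-LSL-Sun1-sfGFP allele on a C57BL/6J background, were used as young adults of both sexes, and have no treatment in the labels. The tag is thus expressed where Cre is driven by the A2a receptor gene or by *Drd1*, so each population is defined by 1 driver line. The H3K27me3 lists (Active Motif antibody) and the H3K4me3 lists (Abcam antibody) each pool 2 samples, 8 samples of 28 in the series, with 1 list for each cell type and mark. The D1 H3K27me3 samples are labelled D1 in their titles and cell type but A2a in their source name. They were taken as D1, and each result below rests on this. A pooled list has no spread between mice, so none of the differences given was tested across mice.

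The D1-alone islands were chosen by the H3K27me3 lists themselves, that is by island length in D1 and by the absence of an overlapping A2a island. There were 1185 of them among 14475 D1 islands of at least 4000 bp on chromosomes 1 to 19 (8.19%), and among 45760 D1 islands in all. The other 13290 long D1 islands overlapped an A2a island and are called shared, with a median of 95.7% of their length inside A2a islands. In the opposite direction, 7233 of 26206 long A2a islands overlapped no D1 island (27.6%). The islands of the autosomes held 7827318 reads in D1 and 21895347 in A2a. The counts are not scaled for depth, and the read density at which islands were called differed, since long A2a islands had at least 36.8 reads per kb and 77.2% of the D1-alone islands had fewer than this in D1. The lack of an A2a island does not give the number of A2a reads that lay there, and the part of depth in the number of D1-alone islands was not tested.

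Sequences from D1-alone islands at promoters are shown first, including promoters outside the indirect pathway. The bases upstream of the RefSeq start sites (GRCm38.p6, the assembly of mm10) are given for *Gpr6*, a constitutively active receptor of indirect pathway neurons, for *Upb1*, an enzyme of pyrimidine breakdown, for *Ptprm*, an adhesive receptor tyrosine phosphatase, for *Oprd1*, the delta opioid receptor, and for *Ttc12*, a protein needed for cilia. These 5 genes have 250 upstream bases inside a D1-alone island, and *Adora2a* and *Ankk1* had no entry in the promoter table. The *Upb1* sequence lies in the island chr10:75405201-75411400, with 276 reads, and not in the one with 1249 reads beside it. Capitals mark CpG dinucleotides, which read the same on both strands.
Gpr6, chr10:41072291-41072540, minus strand: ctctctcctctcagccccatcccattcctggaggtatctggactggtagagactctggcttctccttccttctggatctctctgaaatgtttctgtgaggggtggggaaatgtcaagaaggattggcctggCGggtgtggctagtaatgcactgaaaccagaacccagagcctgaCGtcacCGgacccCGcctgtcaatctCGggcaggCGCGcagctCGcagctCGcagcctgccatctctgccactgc
Upb1, chr10:75406661-75406910, plus strand: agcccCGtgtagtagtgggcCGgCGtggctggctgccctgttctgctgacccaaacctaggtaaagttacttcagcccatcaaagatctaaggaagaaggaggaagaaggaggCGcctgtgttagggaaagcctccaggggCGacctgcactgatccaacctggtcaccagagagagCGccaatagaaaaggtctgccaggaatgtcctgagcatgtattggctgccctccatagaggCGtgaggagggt
Ptprm, chr17:67354460-67354709, minus strand: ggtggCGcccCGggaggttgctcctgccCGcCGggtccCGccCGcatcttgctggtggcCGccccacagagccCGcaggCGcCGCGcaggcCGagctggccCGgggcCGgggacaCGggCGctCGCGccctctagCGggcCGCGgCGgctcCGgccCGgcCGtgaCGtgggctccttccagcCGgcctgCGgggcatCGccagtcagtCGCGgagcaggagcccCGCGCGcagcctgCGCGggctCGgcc
Oprd1, chr4:132144487-132144736, minus strand: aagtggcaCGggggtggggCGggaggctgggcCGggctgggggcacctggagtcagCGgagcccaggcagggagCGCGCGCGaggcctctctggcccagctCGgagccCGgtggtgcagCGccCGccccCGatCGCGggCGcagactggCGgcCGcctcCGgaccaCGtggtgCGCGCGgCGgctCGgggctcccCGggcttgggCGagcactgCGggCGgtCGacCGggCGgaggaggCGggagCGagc
Ttc12, chr9:49486226-49486475, minus strand: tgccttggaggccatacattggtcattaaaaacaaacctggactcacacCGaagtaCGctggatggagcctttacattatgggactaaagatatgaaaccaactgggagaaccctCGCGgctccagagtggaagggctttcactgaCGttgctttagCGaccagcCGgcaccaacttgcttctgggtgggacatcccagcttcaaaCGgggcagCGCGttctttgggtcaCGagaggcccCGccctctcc
The *Ptprm* and *Oprd1* sequences held 37 and 34 CpGs. As many were found in 2.20% and 3.53% of the 32851 promoter entries. *Ttc12*, *Gpr6* and *Upb1* held 12, 9 and 7 CpGs, which 33.5%, 40.3% and 46.3% of the entries reached. The islands thus lay over CpG-rich and over ordinary promoters alike.

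Most D1-alone islands held no promoter. Of the 3 such islands with the most reads, 200 bases are shown, the repeat-free stretch nearest to the middle, again with CpGs in capitals and on the plus strand. The islands lie downstream of *Gpr6*, upstream of *Penk* and within *Grik3*.
Island near *Gpr6*, chr10:41040432-41040631: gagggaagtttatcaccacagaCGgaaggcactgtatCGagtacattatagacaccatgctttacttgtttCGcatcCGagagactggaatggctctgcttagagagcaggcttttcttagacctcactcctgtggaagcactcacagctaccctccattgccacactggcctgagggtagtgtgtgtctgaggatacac
Island near *Penk*, chr4:4189748-4189947: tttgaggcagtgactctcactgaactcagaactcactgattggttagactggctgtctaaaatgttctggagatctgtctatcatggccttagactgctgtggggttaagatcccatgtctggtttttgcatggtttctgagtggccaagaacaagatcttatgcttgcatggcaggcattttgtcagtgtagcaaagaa
Island in *Grik3*, chr4:125592136-125592335: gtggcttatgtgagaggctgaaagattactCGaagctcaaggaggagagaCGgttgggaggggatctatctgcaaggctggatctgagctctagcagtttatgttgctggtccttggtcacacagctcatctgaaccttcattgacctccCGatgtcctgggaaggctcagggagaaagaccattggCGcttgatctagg
These stretches held 4, 0 and 4 CpGs. Over whole islands, the median was 6.36 CpGs per kb in D1-alone islands, 9.66 in shared islands and 8.21 in long A2a islands without a D1 island, against 8.51 over chromosomes 1 to 19. The median GC content was 40.6%, 43.6% and 43.2% in the same order, and 41.9% over the chromosomes. Repeat-masked bases took a median of 19.9% of a D1-alone island and 17.9% of a shared one, while they make up 32.6% of the chromosomes. The 71 D1-alone islands of at least 10 kb had medians of 44.1% GC and 8.53 CpGs per kb, and the 1114 shorter ones 40.5% and 6.25.

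The D1-alone islands covered 6.66 Mb and held 237765 reads, which is 3.04% of the reads in autosomal D1 islands. Their median length was 4.80 kb (range 4.0 to 45 kb), and their median read count 150 (range 76 to 4153). By read density they had a median of 31.4 reads per kb, compared with 39.0 in shared islands, and 20.8% of them reached the D1 median of 37.2 reads per kb, compared with 58.8% of the shared islands. These values come from the list that chose the islands and are a description. At the length threshold, 260 D1 islands of 3800 bp without an A2a island had a median of 116 reads (range 82 to 173), and 179 of 4000 bp had a median of 122 (range 76 to 202). At the overlap threshold, 26 long D1 islands that overlapped A2a islands by at most 200 bp, and so were left out, had a median of 131 reads.

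The islands differed by length. Of the 1185, 938 were shorter than 6 kb, with a median of 139 reads and 30.7 reads per kb, and they made up 11.6% of the D1 islands of that length. Another 176 measured from 6 kb to under 10 kb, with a median of 240 reads. The 71 of at least 10 kb were 3.28% of the D1 islands of their length and had a median of 562 reads and 44.7 reads per kb, compared with 49.7 reads per kb in shared islands as long. Of the longest class 85.9% had another D1-alone island within 50 kb, compared with 25.9% of the shortest. The plot of reads against length shows a broad mass of short islands of few reads and fewer long ones. Of the 71 of at least 10 kb, 34 lay within 200 kb of *Adora2a*, *Gpr6*, *Drd2*, *Grik3*, *Penk* or *Ptprm*, and 37 lay elsewhere. *Ptprm*, with 5 of the 34, is not on the list of indirect pathway markers and was added after its values were seen. Shared islands near that list are counted below.

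**Figure D1:**
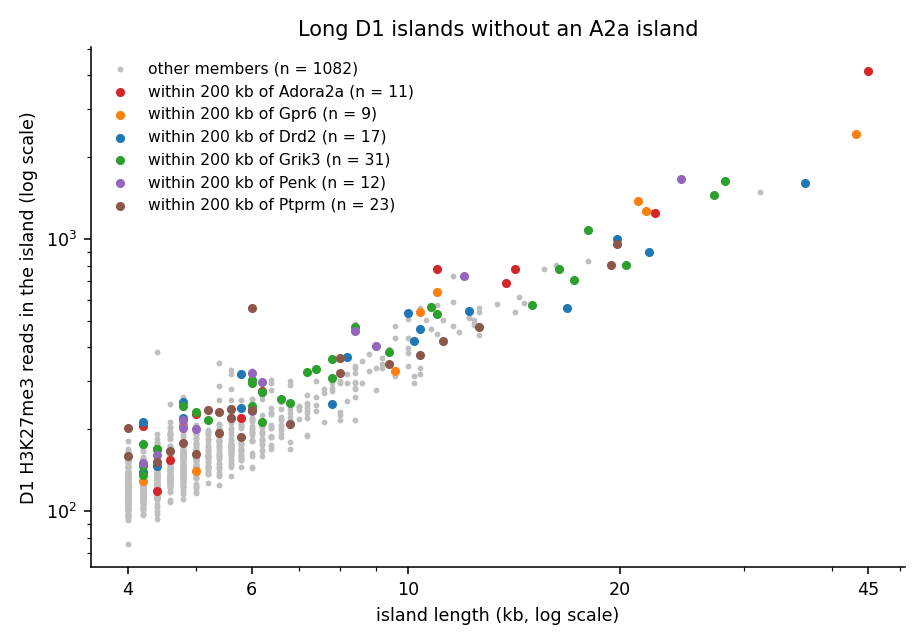
Length (x axis, kb, log scale) and D1 H3K27me3 reads (y axis, log scale) of the 1185 D1-alone islands, 1 point each, coloured by the gene within 200 kb. The islands near *Adora2a* and *Gpr6* reach 45 and 43.2 kb with 4153 and 2445 reads, while the 1082 islands away from the 6 coloured genes run from 76 to 1486 reads. *Ptprm* was added after its values were seen.

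The distance from each D1-alone island to the nearest of the 59660 A2a islands on chromosomes 1 to 19 was measured. No expected distance is given beside these values, so they are a description. The median distance to the nearest A2a island was 9.80 kb, and 418 islands (35.3%, 95% Wilson interval 32.6 to 38.0) had one within 5 kb, 96 of them within 1 kb. At the other end, 206 (17.4%) lay more than 50 kb from any A2a island. The islands of at least 10 kb lay farther away, with a median of 25 kb and 23.9% within 5 kb. When A2a islands were limited to the 45760 with the most reads, as many as D1 had, the number of D1-alone islands was 1605.

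The 12 D1-alone islands with the most reads were examined by position. The first, chr10:75314001-75359000, spanned the whole of *Adora2a*, the A2a receptor gene that drives Cre in the A2a line, and reached into *Gucd1*. It measured 45 kb and held 4153 reads, or 92.3 per kb, and the nearest A2a island was 17.0 kb away. The second, chr10:41018801-41062000, held 2445 reads over 43.2 kb and ended 7.98 kb from *Gpr6*. The third, chr4:4177001-4201400, held 1658 reads 38.2 kb from *Penk*, the gene of the enkephalin precursor that indirect pathway neurons use as a cotransmitter. The 3 leading islands thus lay over or beside 3 indirect pathway genes.

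The fourth and the seventh, chr4:125578201-125606400 and chr4:125528801-125556000, lay inside *Grik3*, a kainate receptor subunit, with 1638 and 1449 reads. The fifth, chr9:49400201-49436800, held 1605 reads over 36.6 kb, from the 3′ end of *Drd2*, the D2 dopamine receptor, across all of the neighbouring kinase gene *Ankk1*. The ninth and the one after it, chr10:41135201-41156400 and chr10:41064201-41086000, lay upstream of *Gpr6* and over it, with 1381 and 1265 reads. The twelfth, chr10:75381401-75403800, held 1249 reads over the start of *Upb1* and within the annotated span of *Gucd1*. The other 3 were away from the marker genes. One with 1486 reads, chr4:92649201-92680800, had no protein-coding gene within 457 kb, 1 with 1393 reads, chr13:11210401-11231600, lay 322 kb from *Ryr2*, a calcium release channel, and 1 with 1264 reads, chr13:10254601-10276800, lay in *Chrm3*, the M3 muscarinic receptor. Of the 12, 9 were therefore within 200 kb of a gene on the indirect pathway list.

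Neighbouring islands formed groups at these loci. Joined where they were at most 50 kb apart, the 1185 islands gave 782 that stood alone and 115 groups of 2 or more. The 8 groups with the most reads held 109 islands (9.20%) and 22.9% of the reads. The group at *Grik3* had 31 islands and 13880 reads over a span of 536 kb. That at *Drd2*, *Ankk1* and *Ttc12* had 20 islands and 9012 reads over 386 kb, that at *Adora2a* and *Upb1* had 11 and 8853 over 187 kb, and that at *Gpr6* and *Fig4*, a phosphoinositide phosphatase gene, had 9 and 7075 over 238 kb. The group at *Penk* had 11 islands and 4891 reads over 205 kb, with most of the islands upstream of the gene. A2a islands lay in the spans of these 5 groups too, 10 at *Grik3*, 6 at *Drd2*, 1 at *Adora2a*, 2 at *Gpr6* and 1 at *Penk*. Outside the marker list and chosen after their values were seen, the groups at *Ptprm* and *Nell1*, a secreted protein, had 10 and 9 islands with 3875 and 3223 reads and no A2a island in their span. A group 25.4 kb from *Zc3h12a* had 8 islands, 3640 reads and likewise no A2a island in its span. Elsewhere in their gene bodies, *Ptprm* and *Nell1* held 5 and 2 A2a islands, with 1882 and 367 reads.

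**Figure D2:**
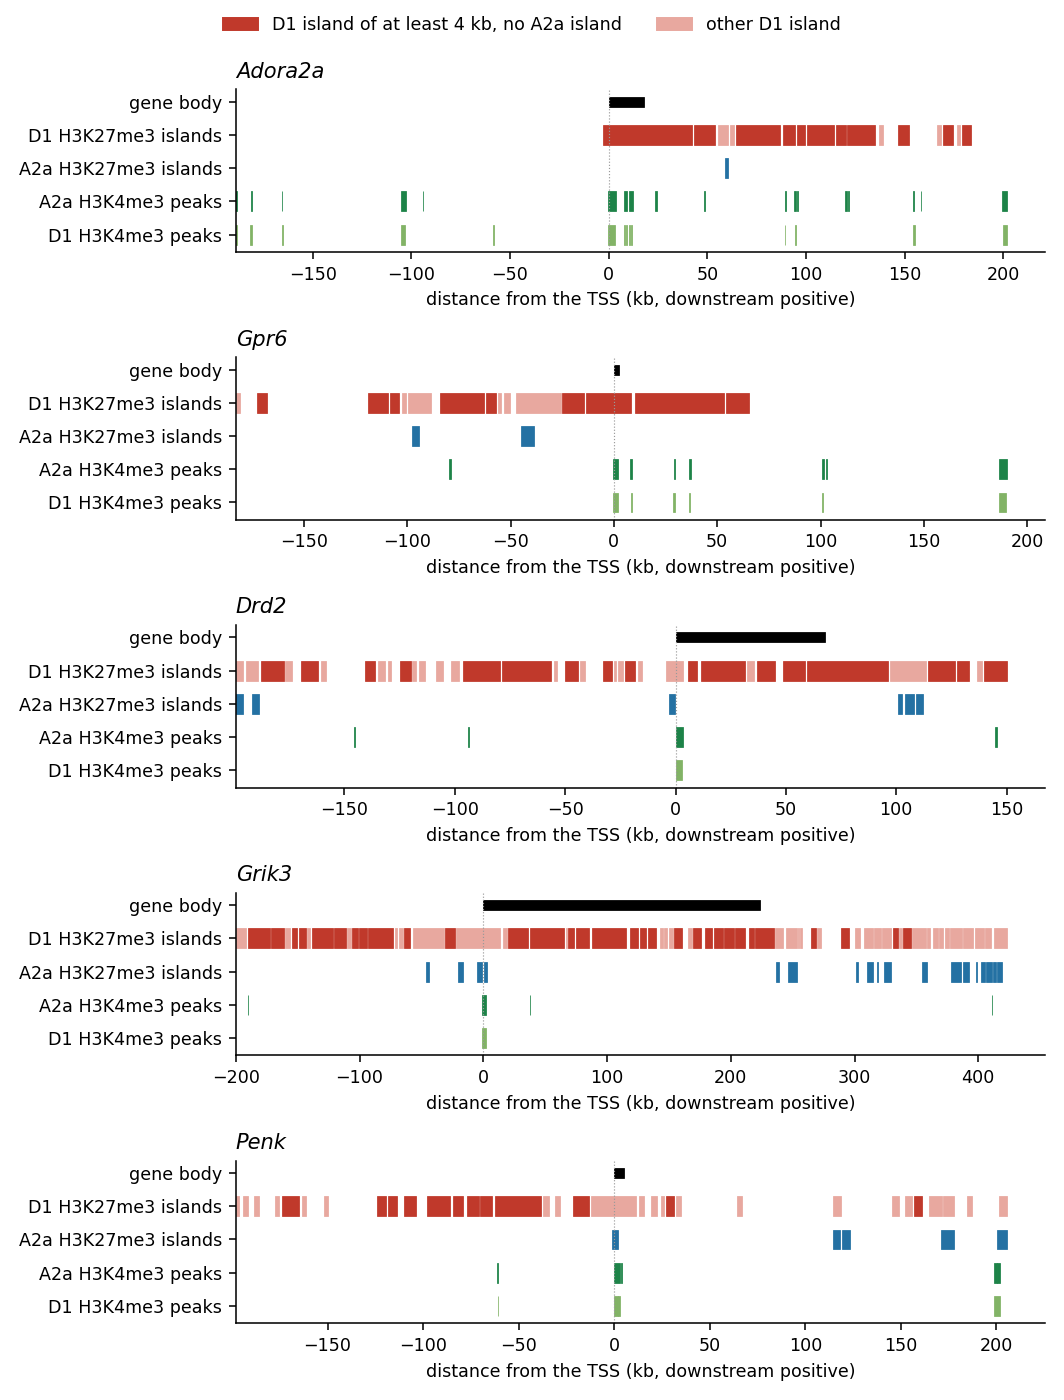
Islands and peaks within 200 kb of 5 indirect pathway genes, by distance from the TSS (x axis, kb, in the direction of transcription), with rows for the gene body, D1 and A2a H3K27me3 islands and A2a and D1 H3K4me3 peaks. Dark red D1-alone islands lie over and beside *Adora2a* (11 islands), *Gpr6* (9), *Drd2* (17) and *Grik3* (31), and mostly upstream of *Penk* (12), whose TSS carries an A2a island.

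The list of indirect pathway markers was compared gene by gene. Of its 9 annotated genes, 7 had a D1-alone island on the gene body or promoter, namely *Grik3*, *Adora2a*, *Drd2*, *Upb1*, *Ankk1*, *Gpr6* and *Plxdc1*, a plexin domain protein. Over the autosomal protein-coding genes 256 of 20807 did (1.23%). The 7 are not separate loci, since *Upb1* lies in the group of islands at *Adora2a* and *Ankk1* in that at *Drd2*. *Gpr52*, also on the list, was not matched by name. The list was drawn up with earlier results of these data known, so the count describes these genes. Genes with a D1-alone island were long, with a median of 163 kb compared with 17.6 kb over all genes. The 9 markers had a median of 17.9 kb, from 2.31 kb at *Gpr6* to 223 kb at *Grik3*. The part of gene length in the count was not tested.

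The cover of the gene body by islands of any length was computed in both lists. In D1, islands covered the whole of *Adora2a*, *Gpr6* and *Ankk1*, 88.2% of *Upb1* and 84.0% of *Drd2*, and in A2a none of these 5 gene bodies held an island. An A2a island did lie upstream of *Drd2*, at -2.8 to -0.2 kb of its TSS. *Grik3* was covered to 82.9% in D1, with 11075 reads in 23 islands, and to 1.34% in A2a, by a single island of 3.0 kb. Upstream of *Grik3*, another A2a island lay at -5.3 to -0.7 kb of its TSS. *Plxdc1* was covered to 18.3% in D1 and not in A2a. *Penk* and *Sp9*, a transcription factor required for indirect pathway neurons, had no D1-alone island on the gene, since A2a islands overlapped the D1 islands there. *Penk* was covered to 100% in D1 and 42.0% in A2a, and *Sp9* to 82% and 42.8%. All 9 markers thus had more of the gene body inside D1 islands than inside A2a islands. The cover comes from the lists that chose the D1-alone islands. For the 7 genes with such an island the direction follows in part from that choice. The share of all genes with more cover in D1 is not given here. Of the 9 markers, *Upb1* and *Ankk1* lie in the groups of islands at *Adora2a* and *Drd2*.

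None of the 10 direct pathway markers (*Drd1*, *Pdyn*, *Tac1*, *Isl1*, *Ebf1*, *Chrm4*, *Sfxn1*, *Eya1*, *Slc35d3* and *Zfp521*) had a D1-alone island. At 6 of them, *Drd1*, *Pdyn*, *Tac1*, *Isl1*, *Chrm4* and *Slc35d3*, A2a islands covered the whole gene body, and D1 islands covered between 0% and 75%. *Ebf1*, a transcription factor of direct pathway neurons, was covered to 92.8% in A2a and 4.04% in D1. *Sfxn1* was the least different, with 7.13% in A2a and 6.58% in D1. The dot plot of gene body cover shows the 2 lists of markers on opposite sides.

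**Figure D3:**
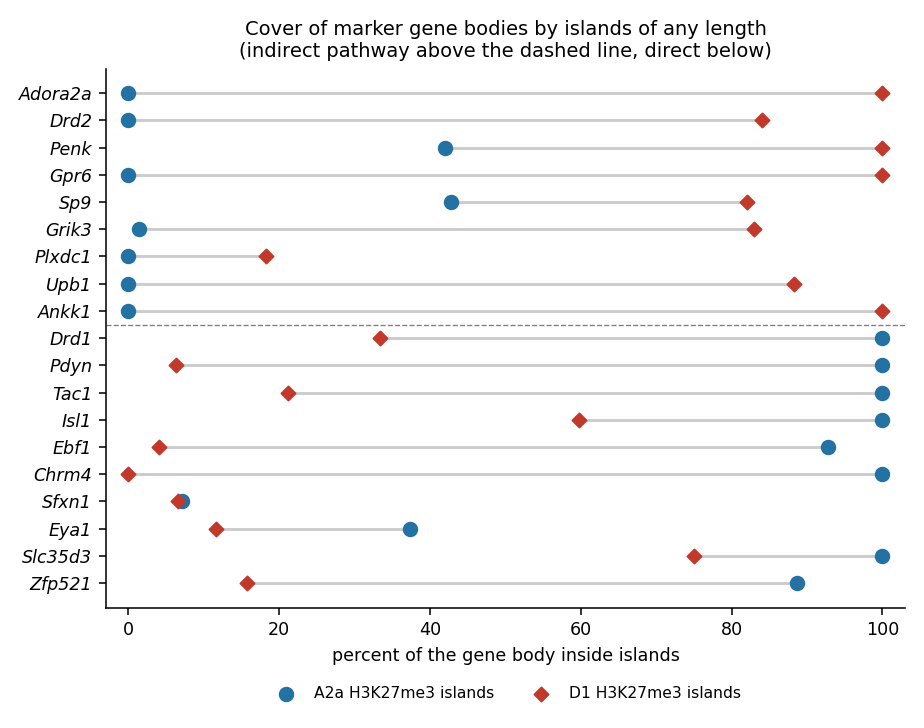
Percent of each marker gene body (x axis) inside D1 (red diamonds) and A2a (blue circles) H3K27me3 islands of any length, from the pooled lists. Diamonds lie to the right at the 9 indirect pathway genes, from 18.3% to 100%, and circles lie to the right at the 10 direct pathway genes.

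Within 200 kb of the 9 indirect pathway markers lay 83 of the 1185 D1-alone islands (7.0%, 95% Wilson interval 5.69 to 8.60), with 18.3% of the reads of all D1-alone islands. Shared islands lay there in 27 of 13290 cases (0.203%, 0.140 to 0.295), and long A2a islands without a D1 island in 0 of 7233, which allows a share of up to 0.0415% if 3 counts are taken as the limit, with a Wilson upper limit of 0.0531%. Among islands of at least 10 kb, 29 of 71 D1-alone islands (40.8%) and 10 of 2093 shared islands (0.478%) lay there. Around the 10 direct pathway markers the order was turned about, with 1 D1-alone island, 57 shared islands and 69 A2a islands without a D1 island, 24 of these at least 10 kb long. Islands of 1 locus are not independent of each other, and the intervals cover counting error only. The share depends on islands being kept as deposited. After islands within 5 kb were joined in each list, the D1 islands at *Grik3*, *Gpr6*, *Drd2* and *Adora2a* became domains of 605, 184, 154 and 142 kb, each of which overlapped at least 1 A2a island. These A2a islands covered 0.987% to 7.65% of the domains. The number of indirect pathway markers with a D1-alone island then was 1 (*Plxdc1*) instead of 7, and 13 of 1053 D1-alone islands lay within 200 kb of the list.

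**Figure D4:**
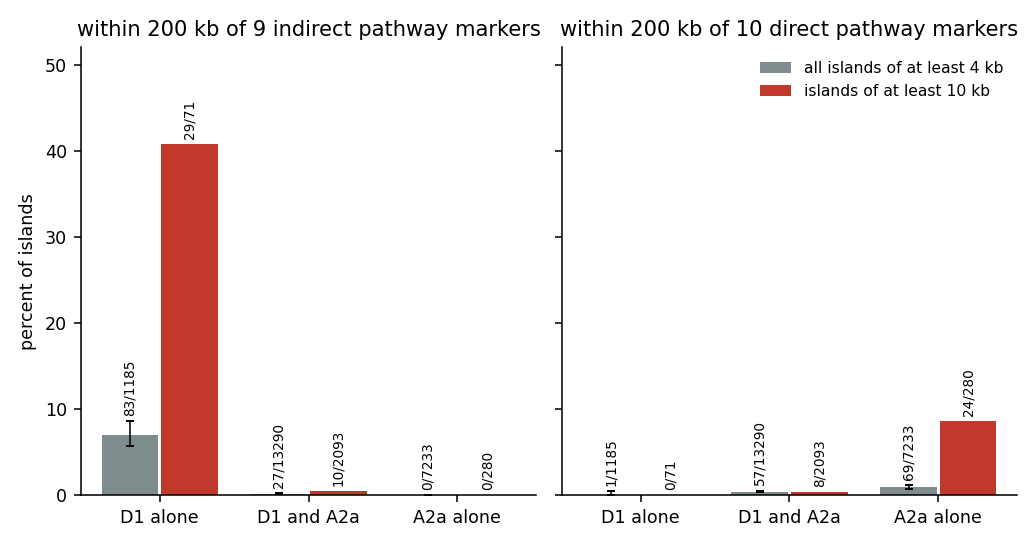
Percent of islands (y axis) within 200 kb of indirect (left) and direct (right) pathway markers, for D1-alone, shared and A2a-alone islands, for all islands of at least 4 kb (grey, whiskers are 95% Wilson intervals) and for those of at least 10 kb (red), with counts above the bars. D1-alone islands reach 7.0% and 40.8% on the left, and A2a-alone islands 0.954% and 8.57% on the right.

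Other gene lists were counted in the same way. Over all autosomal protein-coding genes, 1.23% had a D1-alone island and 13.4% were touched by a shared long D1 island, so that a list of few genes with none is near the background for D1-alone islands. Of 14 dopamine, adenosine, opioid and muscarinic receptor genes 3 had a D1-alone island, *Chrm3*, *Oprd1* and *Adora3*, the A3 adenosine receptor, apart from the marker genes. *Chrm3* had 8 islands with 2724 reads and *Oprd1* 3 with 595 reads, and no A2a island lay in the body of *Oprd1*. *Dbh*, which converts dopamine to noradrenaline, was 1 of 16 cholinergic and monoamine neuron genes, with an island of 4.6 kb and 173 reads. *Slc1a2*, the main astrocytic glutamate transporter, was 1 of 10 astrocyte genes. Islands of any length covered 18.2% of the *Slc1a2* body in D1 and 21.9% in A2a. The cover was 30.5% and 27.1% at *Adora3*, and 27.7% and 2.40% at *Chrm3*. No gene of the lists for striatal projection neurons (12 genes), interneurons (15), cortical excitatory neurons (13), oligodendrocytes (10), microglia (11), endothelial cells (8) and immediate early genes (16) had one. Shared long D1 islands touched 13 of the 13 cortical, 11 of the 15 interneuron, 6 of the 8 endothelial and 4 of the 10 oligodendrocyte genes. They touched 2 of the 16 immediate early, 1 of the 12 projection neuron and 0 of the 11 microglia genes, below the 13.4% over all genes.

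Developmental transcription factors, which are classical Polycomb targets, were often touched by shared islands, while their count for D1-alone islands was near the background. Of 156 genes of the Hox, Pax, Fox, Sox, LIM homeobox, Nkx, Iroquois, Tbx and Gata families, 127 were touched by a shared island (13.4% over all genes) and 2, *Sox6* and *Sox5*, by a D1-alone island (1.23% over all genes). The other families are given beside the same 1.23%, and some beside their median gene length, which was 163 kb for the genes with a D1-alone island. Potassium channel genes, with a median length of 32.2 kb, had 5 of 92, with *Kcnd3*, *Kcnh7* and *Kcnc2* holding the most reads, and collagen genes, with a median of 111 kb, had 5 of 42, led by *Col15a1*. Slit, Robo and netrin family genes had 3 of 17 (*Unc5d*, *Unc5c* and *Slit1*), glutamate receptor genes 2 of 25 (*Grik3* and *Grik1*) and serotonin receptor genes 1 of 13 (*Htr4*). The median lengths of these 3 families were 143, 319 and 18.6 kb in the same order. Olfactory receptor genes, which lie in large silent clusters and have a median length of 5.98 kb, had 5 of 1087 (0.460%), and vomeronasal receptor genes 0 of 326. Of the 30 families 15 had no gene with a D1-alone island.

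Several long genes held many islands, and these were picked after their values were seen. *Ptprm* had 19 islands with 6445 reads, *Unc5d*, a netrin receptor, 11 with 2933, *Pde4d*, a cAMP phosphodiesterase, 13 with 2654, *Nell1* 9 with 3223, *Trpc4*, a cation channel, 7 with 1447, and *Htr4*, a receptor for serotonin, 5 with 2010. Cover by A2a islands was small at some and not at others. It was 0.531% of the *Nell1* body and 2.73% of *Trpc4*, compared with 14.4% and 39.2% in D1, but 20.3% of *Pde4d* compared with 31.1% in D1. In all, 188 of the 256 genes had a single D1-alone island, and 36 had at least 3.

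Promoters, taken from 2 kb upstream to 1 kb downstream of the TSS, were uncommon in D1-alone islands. One was overlapped by 32 of the 1185 (2.70%, 95% Wilson interval 1.92 to 3.79), compared with 13.8% of shared islands and 6.43% of long A2a islands without a D1 island. A protein-coding gene body was touched by 36.7% (34.0 to 39.5), compared with 41.6% and 34.8%. The median distance to a protein-coding TSS was 132 kb, 70.1 kb and 72.5 kb. For the gene body share, the interval was 40.7 to 42.4 in shared islands and 33.7 to 35.9 in the A2a islands. These intervals cover counting error over islands of pooled lists, and they do not test the shares against each other. Shared islands also had a longer median length than D1-alone islands. With a minimum length of 8000 bp, the promoter and gene body shares of D1-alone islands were 6.25% and 55.4%. The part of island length in the differences between the shares was not tested.

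The 32 islands overlapped 33 promoters. Those in islands with the most reads were *Adora2a*, *Ankk1*, *Gpr6*, *Upb1*, the predicted gene *Gm4894*, *Ptprm*, *Ttc12*, *Coil* and *Elobl*, with 4153 to 385 reads. They were followed by *Oprd1* (294 reads), *Slc22a12*, a urate transporter (290), *Cdca7*, a gene of dividing cells (283), *Gm20721* (259), *1700021F07Rik* (202) and *Chil3*, a chitinase-like protein (197). The *Ptprm* promoter island, chr17:67350801-67356800, had the highest density of all D1-alone islands, with 559 reads in 6.00 kb or 93.2 per kb, over the CpG-rich sequence shown above. In 24 of the 33 cases the island held fewer than 300 reads.

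H3K4me3, which was measured in other libraries than those that chose the islands, was then set beside these promoters. Both lists had a peak at 7 of the 33, neither list at 23, A2a alone at 1 and D1 alone at 2. *Upb1* is counted among the 23 by its annotated gene start. Just upstream of the RefSeq bases shown above for *Upb1*, both lists had a peak. Its fold enrichment was 4.94 in A2a and 2.98 in D1, at percentiles 27.9 and 1.15. Over all 20807 autosomal protein-coding promoters, a peak was found in A2a alone at 2.61% and in D1 alone at 0.154%. The promoter with a peak in A2a alone was *Ttc12*, with a fold enrichment of 6.10 over local background and a −log10 q of 19.1. The 2 with a peak in D1 alone, *Coil*, the gene of the Cajal body protein coilin, and *Elobl*, face away from each other and share 1 peak, with a fold enrichment of 3.26 and a −log10 q of 6.05. Their island, chr11:88966401-88970800, had 385 reads in 4.4 kb, the third highest density of the D1-alone islands, and lay 128 kb from an A2a island. The D1 lists thus held both marks there and the A2a lists neither. With promoters of 1 kb to either side of the TSS, the peak touched neither gene's promoter. The shared D1 peak was at percentile 9.67 of its list. The share of 1 in 33 for A2a alone has a Wilson interval of 0.537% to 15.3%. No interval is given for the 2 in D1 alone, since they rest on 1 peak in 1 island.

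At the 7 promoters with a peak in both lists, peaks were ranked by −log10 q within their own list, since the lists are not normalized to each other. With the A2a percentile given first and the D1 percentile second, *Adora2a* was at 90.6 and 53.4, *Ptprm* at 89.9 and 56.7, *Oprd1* at 71.4 and 41.5, *Cdca7* at 71.1 and 52.3, and *Gpr6* at 55.6 and 45.4. *Chn2*, a Rac GTPase activating protein, and *Adamtsl4*, a secreted protein, completed the set and were named after their values were seen, at 86.1 and 61.4 and at 6.76 and 0.637. The percentile was higher in A2a at 7 of 7, by a median of 24.8 points. Over the 11788 promoters with a peak in both lists it was higher in A2a at 65.4%, by a median of 3.87 points. In shared islands it was higher in A2a at 89.7% of 779 promoters, by a median of 11.4 points, and in long A2a islands without a D1 island at 79.1% of 187, by a median of 6.95 points. The direction was thus not particular to D1-alone islands, nor to D1 islands. Fold enrichment differed less. It was higher in A2a at 6 of the 7, compared with 59.2% over all. In shared islands it was higher in A2a at 81.6%, and in long A2a islands without a D1 island at 78.1%. At *Adora2a* fold enrichment was 3.79 in A2a and 3.74 in D1, while at *Gpr6* it was 4.27 and 4.58.

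**Figure D5:**
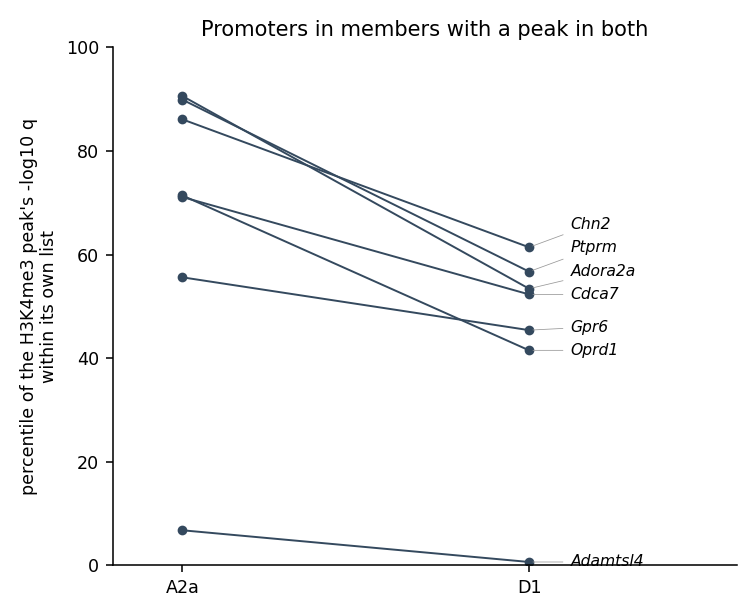
Percentile by −log10 q (y axis) of the H3K4me3 peak at the 7 promoters in D1-alone islands that have a peak in A2a and in D1 (x axis), 1 line per promoter, from pooled lists. The 7 lines run down from A2a to D1, by 6.12 to 37.2 points.

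The same ranking was made for genes whose body or promoter had a D1-alone island. Of the 148 with a promoter peak in both lists, 130 (87.8%) had the higher percentile in A2a, by a median of 9.67 points. Genes touched by shared islands gave 85.7% and 9.86 points, and genes touched by long A2a islands without a D1 island 80.9% and 7.73 points. Of the 36 genes with at least 3 D1-alone islands, 29 had a peak in both lists, and 24 of these (82.8%) had the higher percentile in A2a, by a median of 15.9 points. Of the 95 with a single D1-alone island and a peak in both lists, 90.5% did, by a median of 8.54 points. *Chrm3*, whose promoter is not in a D1-alone island, had an A2a percentile of 98.4 and a D1 percentile of 52.8, and *Trpc4* had 88.3 and 49.0. *Plxdc1* went the other way, at 70.6 in A2a and 82.4 in D1.

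H3K4me3 peaks were also counted anywhere in D1-alone islands. The A2a list had 40, of which 14 (35.0%) overlapped no D1 peak, compared with 17.7% of all autosomal A2a peaks. These 40 were at a median percentile of 31.9 in their list, and peaks of like rank were not compared. At promoters, a peak in A2a alone was found at 10.3% in shared islands and 3.03% in D1-alone islands. The D1 list had 28, of which 1 (3.57%) overlapped no A2a peak, compared with 5.12% of all autosomal D1 peaks. That 1 peak was the one at *Coil* and *Elobl*. Of the 14 A2a peaks, 5 lay in islands near *Adora2a*, 2 each near *Drd2*, *Grik3* and *Ptprm*, and 1 near *Gpr6*. Near these 5 genes and *Penk* together, 12 of 23 A2a peaks overlapped no D1 peak. In the other D1-alone islands 2 of 17 overlapped none, so the higher share was confined to these loci. Within the *Adora2a* island a peak at chr10:75340609-75341412, past the 3′ end of the gene, was enriched 5.65-fold over background in A2a, and no D1 peak overlapped it. In 31 of the 40 A2a peaks no promoter was touched.

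D1-alone islands were spread over the 19 autosomes, from 21 on chromosome 19 to 140 on chromosome 4. As a share of the long D1 islands of the chromosome they ranged from 5.53% on chromosome 11 to 13.6% on chromosome 17. Chromosomes 4 and 10, which carry *Grik3*, *Penk*, *Oprd1*, *Adora2a* and *Gpr6*, had 40574 and 26705 of the reads in D1-alone islands.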

How the data were processed

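CnR libraries of striatal nuclei isolated by INTACT were analysed from the 4 lists that pool 2 samples each (A2a and D1, H3K27me3 and H3K4me3). Alignment to mm10 was done by the authors, whose notes name bowtie2 (version 2.1.0), SAMtools (version 0.1.19) and Picard, and they called H3K27me3 islands with SICER against a control library that is not given in the sources used here. The window was 200 bp, the gap 600 bp and the false discovery rate 0.01. For each island the authors deposited a raw read count, not scaled for depth. MACS2 was used by the authors for H3K4me3, and each deposited peak has 1 fold enrichment against its local background and 1 −log10 q-value. How the pooling weighted the replicates is not stated, and library totals are not part of the lists, so depth per sample is unknown and fewer reads cannot be told apart from less mark.

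Islands start on multiples of 200 bp counted from 0 and include their end. They were converted to coordinates counted from 1. Members were islands on chromosomes 1 to 19 of at least 4000 bp with no overlapping A2a island. Genes were taken from GENCODE vM21, and the promoter was set from 2 kb upstream to 1 kb downstream of the annotated 5′ end. Of the 31396 autosomal RefSeq promoter entries, 31396 had the same bases in the GRCm38.p6 sequence. Percentiles were taken within each list. Shares have Wilson intervals at the 95% level, which cover counting error only. No test was run, because each list pools its replicates. Named genes were the marker genes and genes of the symbol lists with an island, the 12 islands with the most reads, the 15 promoters in islands with the most reads, promoters with H3K4me3 in 1 cell type alone (up to 5 each) and up to 3 genes per family. The promoter sequences of *Ptprm*, *Oprd1* and *Ttc12*, and the genes and groups said to be named after their values were seen, fall outside these rules. The members, gene lists and rules were chosen with earlier results of these data known. A check on the interval functions used simulated data. Under 10 alternative settings, each applied to the results it bears on, 37 values were recomputed. IgG, N2a and other antibody samples were not analysed here. The software was matplotlib (version 3.10.9), scipy (version 1.17.1), pandas (version 2.3.3) and numpy (version 2.4.6) under Python (version 3.11.15).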

Additional observations from a re-analysis of the deposited data

How the results depend on the processing

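No paired analysis was possible because each list pools its 2 samples, and for the same reason no sample could be left out. Of 37 recomputed values 20 stayed within 1.5 times the count or inside the interval of the value as reported. Raising the minimum length to 8000 bp left 112 D1-alone islands, with 41.6 reads per kb, 19.6% within 5 kb of an A2a island, 6.25% over a promoter, 55.4% in a gene body and 0 promoters with H3K4me3 in D1 alone. Lowering it to 2000 bp gave 7129. Requiring that no A2a island lay within 5 kb gave 767, and D1 islands at or above the median reads per kb gave 247. Joining islands within 5 kb gave a median of 28.0 reads per kb, 32.5% in a gene body and 2 promoters with H3K4me3 in A2a alone. With as many A2a as D1 islands, 32.5% lay within 5 kb of an A2a island. Promoters of 1 kb to either side gave 0 with H3K4me3 in D1 alone, any annotated transcript start gave 4.81% of islands over a promoter, and peaks with a −log10 q of at least 5 gave 2 promoters with H3K4me3 in A2a alone. Counting all annotated genes put 46.4% in a gene body. The cause was not tested where fewer islands or genes do not show it. The number of D1-alone islands follows from the length threshold and from how many islands were called in A2a, and without library totals a missing island cannot be read as missing signal.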
